A study of Homo sapiens with 6 samples.

Results

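The genes described here encode the ligands, receptors, SMAD proteins, regulators and target genes of transforming growth factor beta (TGF-beta), activin and bone morphogenetic protein (BMP) signalling. They were taken from a list of 46 gene symbols, and every probe set whose only annotated symbol was on the list was kept, which gave 138 of the 49293 probe sets that were not array controls. These probe sets covered 45 of the 18132 genes with a probe set of their own; BMPR1A was not analysed here. Biotinylated cRNA for the arrays was made from total RNA of 786-O cells. This is an established human renal cell carcinoma line that lacks a working VHL protein, cultured in medium with fetal bovine serum. The cells carried either an shRNA against ERCC6L (shERCC6L, 3 arrays) or a negative control shRNA (shNC, 3 arrays), brought in by lentivirus. ERCC6L, also called PICH, is a DNA translocase of mitosis that acts on ultrafine DNA bridges. All samples carry the same treatment text, which names the ERCC6L shRNA alone. The number of hairpins is not given in the sources used here, and no label says that the 3 samples of a group were separate cultures, so p-values measure the spread between samples that may be technical. Cells without any shRNA were not analysed here.

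Ligands of the family are secreted dimers that bring type II and type I receptor kinases together: TGF-beta and activin receptors phosphorylate SMAD2 and SMAD3, BMP receptors phosphorylate SMAD1 and SMAD5, and either kind joins SMAD4 to act on genes in the nucleus. TGF-beta is released in a latent form held by binding proteins in the matrix, and inhibitory SMADs, ubiquitin ligases and corepressors damp the signal. In kidney epithelium and renal carcinoma the pathway is known for its part in matrix production, growth arrest and loss of epithelial character.

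The ERCC6L probe set read 97.6, 97.5 and 97.8 on the shERCC6L arrays, against 239.9, 244 and 261 on the shNC arrays, a log2 fold change of -1.22 ± 0.04 (SE, n = 3 per group). Across all probe sets, array controls included, the log2 values of arrays correlated at 0.9987 to 0.999 within groups and at 0.9932 to 0.9939 between groups. Median signals of the arrays lay between 60.0 and 61.2 in shERCC6L and between 60.4 and 61.6 in shNC. Of the renal carcinoma markers, PAX8, PAX2, KRT8, KRT18, VIM and EPAS1 all lay above the median level of all genes, with a summed signal of 20335 to 20905 in shERCC6L and 20282 to 20686 in shNC. Most of that sum was VIM, and of the 6, PAX8 (0.34 ± 0.04 on the log2 scale, SE) and KRT18 (0.13 ± 0.04) were higher and EPAS1 (-0.36 ± 0.03) was lower in shERCC6L. The summed signal of 3 leukocyte markers was 183 to 191 in shERCC6L and 154 to 174 in shNC, where CD68 was higher in shERCC6L. That of 3 endothelial markers was 149.9 to 153 in shERCC6L and 152 to 158 in shNC, with no marker past the threshold used below. That of 4 fibroblast markers was 128 to 129.7 in shERCC6L and 155 to 164 in shNC, where COL1A1 and PDGFRA were lower in shERCC6L. No marker was listed at 0, the leukocyte antigen gene PTPRC read 6.76 to 7.81 in shERCC6L, and the part of such cells in the results below was not tested. In RNA from whole cultures, fewer cells of a kind and less RNA per cell cannot be told apart.

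Most members of the pathway differed between the groups, and the largest differences were falls. Values are linear probe set signals, and fold changes are differences of log2(signal + 16) between shERCC6L and shNC on each gene's brightest probe set. The added 16 makes the change of dim genes look smaller. A gene was called when its limma p was under 0.05 after Benjamini-Hochberg adjustment across the 18132 genes, and a single probe set likewise in a fit across all 49293. Of the 45 members, 27 were called (60%), against 31.6% of all genes. Of the 45, 11 were higher (24.4%), against 18.2% of all genes, and 16 were lower (35.6%), against 13.4% of all genes. The median log2 fold change was -0.07 over the members and -0.01 over all genes, and the medians of the absolute values were 0.15 and 0.07. The groups did not overlap for 30 members (66.7%), against 43.4% of all genes. Brighter genes were called more often, and 35 of the members lay at or above the median level of all genes. Among those 35, 24 were called (68.6%), against 52.4% of all 9066 genes at that level, and 26 had groups that did not overlap (74.3%), against 64.5%. Of the 35, 10 were higher (28.6%, against 32.8%) and 14 lower (40%, against 19.6%). Of the 10 members below that level, 3 were called (30%), against 10.9% of all genes there. Member log2 fold changes ran from -0.84 for SMAD2 to 0.63 for INHBA, so that 0 members reached 2-fold. By role, the 16 ligands, binding proteins and inhibitors held 1 rise and 8 falls (median log2 fold change -0.12). The 10 receptors and co-receptors held 4 rises and 1 fall (median 0.01), the 7 SMADs 1 rise and 3 falls (median -0.11), the 6 ligases and corepressors 4 rises and 0 falls (median 0.23) and the 6 target genes 1 rise and 4 falls (median -0.23). In the same order, 6.25%, 40%, 14.3%, 66.7% and 16.7% were higher, against 18.2% of all genes. Lower were 50%, 10%, 42.9%, 0% and 66.7%, against 13.4% of all genes. In these roles 10, 7, 7, 6 and 5 genes lay at or above the median level, where 32.8% of all genes were higher and 19.6% lower.

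**Figure D1:**
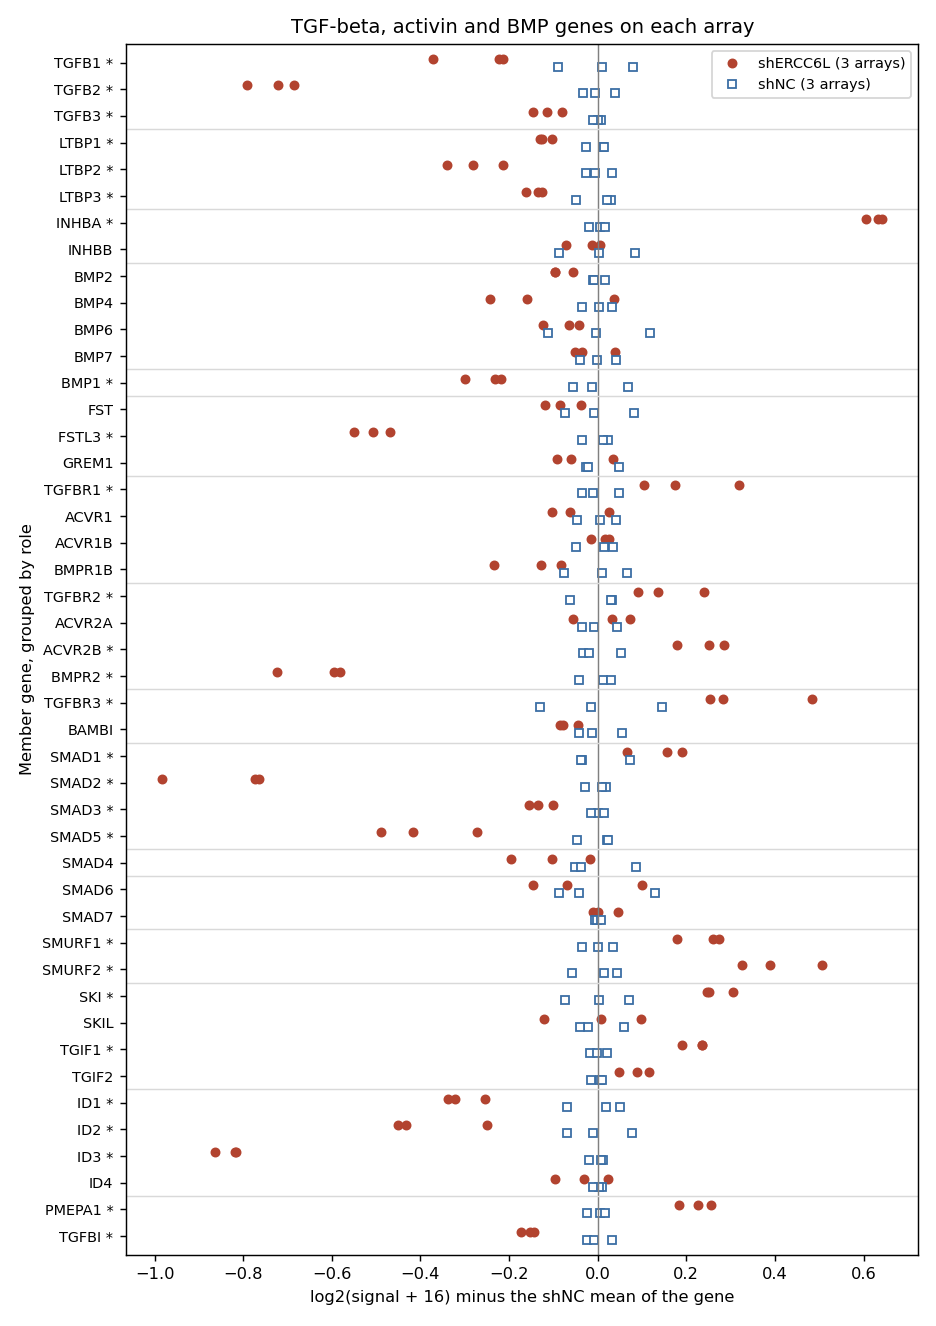
Each of the 45 member genes is a row, grouped by role, with log2(signal + 16) on each array minus the gene's shNC mean on the horizontal axis. Filled circles are the 3 shERCC6L arrays, open squares the 3 shNC arrays, and an asterisk marks the 27 genes past the threshold. SMAD2, ID3, TGFB2, BMPR2 and FSTL3 lie farthest to the left of 0 and INHBA farthest to the right.

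Among the ligands, all 3 TGF-beta genes were lower and the activin A gene was higher, while the BMP genes were not called. TGFB2, which encodes the TGF-beta2 isoform, had a signal of 129, 122 and 133 on the shERCC6L arrays, against 229.6, 218 and 222 on the shNC arrays. The groups were far apart, with the highest shERCC6L array well below the lowest shNC array. TGFB2 fell by 0.73 ± 0.04 on the log2 scale (SE, n = 3 per group; limma adjusted p = 2.3e-06), or 1.66-fold. Its dimmer probe set, at 28.1, 36.9 and 31.1 on the shERCC6L arrays, against 46.4, 44.2 and 42.5 on the shNC arrays, also passed, at -0.33 ± 0.06. The TGFB1 gene, for the most widely expressed isoform, had a signal of 252, 254 and 226 on the shERCC6L arrays, against 314, 278 and 299 on the shNC arrays. All shERCC6L arrays were below all shNC arrays, and TGFB1 fell by 0.27 ± 0.06 (adjusted p = 0.00571) on its only probe set. TGFB3 was dim, at 25.7, 23.9 and 24.7 on the shERCC6L arrays, against 28.3, 28.1 and 27.8 on the shNC arrays. Its fall of 0.11 ± 0.03 (adjusted p = 0.029) was past the threshold under 6 of 15 alternative settings, and its 2 other probe sets did not pass. Leaving out shERCC6L replicate 2 or 3, or shNC replicate 1, 2 or 3, ended the TGFB3 call (adjusted p = 0.109, 0.0639, 0.0814, 0.0674 and 0.0652).

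INHBA encodes the beta A subunit, whose dimer is activin A. It had a signal of 1008, 1027 and 1035 on the shERCC6L arrays, against 647, 659 and 665 on the shNC arrays, so that every shERCC6L array was far above every shNC array. The means were 1023 ± 13.5 in shERCC6L and 657 ± 8.76 in shNC cells (SD, n = 3 each), a log2 fold change of 0.63 ± 0.03 (SE; adjusted p = 1.7e-06), and 106 of 18132 genes rose by more. The other INHBA probe set had a signal of 437, 446 and 477 on the shERCC6L arrays, against 255, 266 and 262 on the shNC arrays, a change of 0.76 ± 0.04. INHBB, which encodes the beta B subunit, had a signal of 434, 452 and 458 on the shERCC6L arrays, against 457, 429 and 485 on the shNC arrays. These groups overlapped, at a log2 fold change of -0.03 with a 95% interval of -0.13 to 0.08.

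The BMP ligand genes BMP2, BMP4, BMP6 and BMP7 were not called, with log2 fold changes of -0.08, -0.12, -0.08 and -0.02. BMP2 read 199, 205 and 199 on the shERCC6L arrays, against 213, 213 and 217 on the shNC arrays. Its groups did not overlap, but the adjusted p was 0.0873. BMP4 had a signal of 74.5, 58.6 and 62.9 on the shERCC6L arrays, against 70.1, 72.5 and 74.2 on the shNC arrays, with replicate 1 of shERCC6L above all shNC arrays and the other two below them. Without that array the BMP4 change was -0.20 (adjusted p = 0.0098). BMP6 had a signal of 20.5, 19 and 21.1 on the shERCC6L arrays, against 19.3, 25.4 and 22 on the shNC arrays, and BMP7 had a signal of 20.7, 22.6 and 20.3 on the shERCC6L arrays, against 21.6, 22.7 and 20.6 on the shNC arrays. Both overlapped between groups, at signals where the added 16 dampens any change. BMP1, despite its name a metalloproteinase that trims procollagens, was lower by 0.25 ± 0.04 (adjusted p = 0.00177). That call rests on 1 of its 5 probe sets, which had a signal of 107, 115 and 113 on the shERCC6L arrays, against 143, 135 and 130.1 on the shNC arrays. With the 5 averaged, BMP1 fell by 0.12.

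The stretches of DNA just before the transcription start sites of TGFB2 and INHBA are shown because these ligands had the largest fall and the largest rise among the ligand genes. Each is the 250 bases before the RefSeq start site on build GRCh38.p14, read 5′ to 3′, at chr1:218345086-218345335 on the plus strand for TGFB2 and at chr7:41703091-41703340 on the minus strand for INHBA. Capitals mark matches to 7 short motifs searched on both strands: the SMAD palindrome GTCTAGAC, the GC-rich SMAD element GGCGCC, the E-box CACGTG, the cyclic AMP element TGACGTCA, the AP-1 site TGACTCA, the CCAAT box and the TATA box TATAAA.
TGFB2: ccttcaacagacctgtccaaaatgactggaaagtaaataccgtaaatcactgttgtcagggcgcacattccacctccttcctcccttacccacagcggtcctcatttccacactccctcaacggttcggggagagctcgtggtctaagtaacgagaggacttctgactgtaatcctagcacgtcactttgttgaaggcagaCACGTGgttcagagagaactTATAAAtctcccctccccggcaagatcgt
INHBA: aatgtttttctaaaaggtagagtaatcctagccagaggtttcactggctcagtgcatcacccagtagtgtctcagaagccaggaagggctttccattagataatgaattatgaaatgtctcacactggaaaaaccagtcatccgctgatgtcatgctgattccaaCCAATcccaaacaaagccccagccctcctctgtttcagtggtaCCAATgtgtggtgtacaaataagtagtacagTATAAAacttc
The TGFB2 window holds an E-box that starts 49 bases before the start site and a TATA box 29 bases before it. The INHBA window holds CCAAT boxes 85 and 42 bases before the start site and a TATA box 11 bases before it. Neither window holds the letters of the SMAD palindrome, the GC-rich SMAD element, the cyclic AMP element or the AP-1 site. Of 35116 such windows in the RefSeq table, 6.34% hold the E-box, 10.7% the TATA box, 32% the CCAAT box, 16.4% the GC-rich SMAD element, 1.65% the cyclic AMP element, 4.2% the AP-1 site and 0.182% the SMAD palindrome. RefSeq windows were found for 42 of the 46 listed genes. Of these 83 windows, 20 (24.1%) hold the GC-rich SMAD element and 1 (1.2%) the SMAD palindrome. The E-box is in 6 (7.23%), the TATA box in 10 (12%) and the CCAAT box in 28 (33.7%). The cyclic AMP element is in 2 (2.41%) and the AP-1 site in 3 (3.61%). Some genes have several windows and count more than once, and differences from the shares of all windows were not tested. A match is a description of the letters and not evidence of a bound factor.

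The 3 latent TGF-beta binding protein genes were all lower, by small amounts. LTBP proteins tether latent TGF-beta to the matrix. LTBP2, a matrix protein of the same family that does not bind latent TGF-beta itself, had a signal of 115, 122 and 110.2 on the shERCC6L arrays, against 147, 143 and 141 on the shNC arrays. The groups did not overlap, and it fell by 0.28 ± 0.04 (adjusted p = 7.5e-04), with a fall of 0.38 ± 0.05 on its other probe set. LTBP3 had a signal of 403, 393 and 400.5 on the shERCC6L arrays, against 451, 426 and 448 on the shNC arrays, a fall of 0.14 ± 0.04 (adjusted p = 0.0143) that passed on 2 of its 4 probe sets. LTBP1 read 26.1, 26.1 and 26.8 on the shERCC6L arrays, against 30.4, 29.2 and 30.5 on the shNC arrays, and passed at -0.12 ± 0.03 on 1 of its 5 dim probe sets. Neither the LTBP3 nor the LTBP1 call held under every alternative setting. The LTBP3 call ended without shERCC6L replicate 2, shNC replicate 1 or shNC replicate 3 (adjusted p = 0.0577, 0.0548 and 0.0546). LTBP1 passed under 9 of 15 alternatives. Among those that ended its call were leaving out shERCC6L replicate 1 or 2 or shNC replicate 1 or 3 (adjusted p = 0.0513, 0.0700, 0.0653 and 0.0703). Averaging its probe sets also ended the call (-0.05, adjusted p = 0.139).

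FSTL3 was the inhibitor gene that fell. FSTL3 is a secreted relative of follistatin that binds and neutralises activins. It had a signal of 484, 471 and 457 on the shERCC6L arrays, against 688, 659.7 and 682 on the shNC arrays. All shERCC6L arrays lay clearly below the shNC arrays, and the means were 471 ± 13.7 in shERCC6L and 676 ± 14.7 in shNC cells (SD, n = 3 each). The log2 fold change was -0.51 ± 0.04 (SE; adjusted p = 1.2e-05). Its other two probe sets fell by 0.51 ± 0.05 and 0.72 ± 0.03. Follistatin itself, FST, had a signal of 208, 203 and 215 on the shERCC6L arrays, against 235, 209.7 and 220.3 on the shNC arrays, and these groups overlapped (log2 fold change -0.08, 95% interval -0.18 to 0.02). GREM1, which encodes the BMP antagonist gremlin, read 15, 17.1 and 14.3 on the shERCC6L arrays, against 15.7, 17.4 and 15.8 on the shNC arrays. The groups overlapped, and none of its 4 probe sets passed.

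The receptor genes moved in different directions, with BMPR2 lower and TGFBR1, TGFBR2, ACVR2B and TGFBR3 higher. BMPR2, the type II receptor for BMPs, had a signal of 250.01, 253 and 227 on the shERCC6L arrays, against 389, 374 and 394 on the shNC arrays. Every shERCC6L array was far below every shNC array, at means of 243 ± 13.9 in shERCC6L and 386 ± 10.4 in shNC cells (SD, n = 3 each). BMPR2 fell by 0.63 ± 0.05 on the log2 scale (SE; adjusted p = 1.2e-05), or 1.55-fold. Its other probe sets fell by 0.39 ± 0.05 and 0.54 ± 0.06, so the fall was seen on all 3.

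The TGF-beta receptors showed small rises. TGFBR2, the type II receptor that binds TGF-beta, had a signal of 1602, 1654 and 1777 on the shERCC6L arrays, against 1439.9, 1539 and 1535 on the shNC arrays. These groups did not overlap but lay close together, at a change of 0.16 ± 0.05 (adjusted p = 0.0338), and its second probe set changed by 0.21 ± 0.04. The TGFBR2 call ended without shERCC6L replicate 2 or 3 or shNC replicate 1 or 3 (adjusted p = 0.0699, 0.0989, 0.117 and 0.0575) and with a pseudocount of 1 (0.0653). TGFBR1, the type I kinase that phosphorylates SMAD2 and SMAD3, had a signal of 546, 519 and 605 on the shERCC6L arrays, against 478, 498 and 469.6 on the shNC arrays, with shERCC6L replicate 3 the highest. Its change was 0.20 ± 0.05 (adjusted p = 0.021), and the 2 other probe sets, which read under 19, did not pass. With the 3 averaged TGFBR1 changed by 0.12 and passed (adjusted p = 0.00717). It was not called without shNC replicate 1 or 3 (adjusted p = 0.0603 and 0.0737).

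TGFBR3, betaglycan, is a co-receptor that presents TGF-beta2 to the signalling receptors. Its brightest probe set had a signal of 41.2, 42.3 and 51 on the shERCC6L arrays, against 31.5, 27.8 and 37.1 on the shNC arrays. The groups did not overlap, although the spread within each was wide, and the change was 0.34 ± 0.08 (adjusted p = 0.00907). A second probe set changed by 0.25 ± 0.03 and another, at -0.04 ± 0.05, did not pass. With the 3 averaged TGFBR3 changed by 0.18. ACVR2B, an activin type II receptor, had a signal of 91.2, 96.7 and 99.4 on the shERCC6L arrays, against 82.2, 76.6 and 77.5 on the shNC arrays. That is a rise of 0.24 ± 0.04 (adjusted p = 0.00197) with no overlap, but its other probe set was at -0.01 ± 0.08 and the mean of both at 0.12 did not pass.

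The remaining receptor genes were not called. ACVR2A, the other activin type II receptor, had a signal of 70, 78.1 and 75.5 on the shERCC6L arrays, against 76.2, 72.9 and 71.3 on the shNC arrays, a change of 0.02 (95% interval -0.08 to 0.11). A dim ACVR2A probe set, at 29.9, 24.7 and 28.5 on the shERCC6L arrays, against 23.7, 18.6 and 23.6 on the shNC arrays, rose without overlap. Its change was 0.20 ± 0.06 (adjusted p = 0.0461). As a gene, ACVR2A passed under 0 of 15 alternatives. ACVR1B, the type I receptor of activin, had a signal of 307, 301 and 309 on the shERCC6L arrays, against 307, 293 and 312 on the shNC arrays, a change of 0.01 (95% interval -0.07 to 0.09). On the brightest probe set, both genes overlapped between the groups. ACVR1, a type I receptor for BMPs, had a signal of 251, 244 and 268 on the shERCC6L arrays, against 254, 264 and 271 on the shNC arrays, likewise with overlap, a change of -0.05 (95% interval -0.15 to 0.05). BMPR1B, another BMP type I receptor, read 12.3 to 15.4 on the shERCC6L arrays and 15.5 to 18.8 on the shNC arrays. Its groups did not overlap, at -0.15 ± 0.05 (adjusted p = 0.0554), and it passed under 5 of 14 alternatives, among them those without shERCC6L replicate 3 (adjusted p = 0.0371) and without shNC replicate 2 (0.0305). BAMBI, a receptor-like decoy without a kinase domain, had a signal of 333, 342 and 334 on the shERCC6L arrays, against 351, 368 and 343 on the shNC arrays. Those groups did not overlap, yet the change of -0.07 ± 0.04 did not pass (adjusted p = 0.211).

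**Figure D2:**
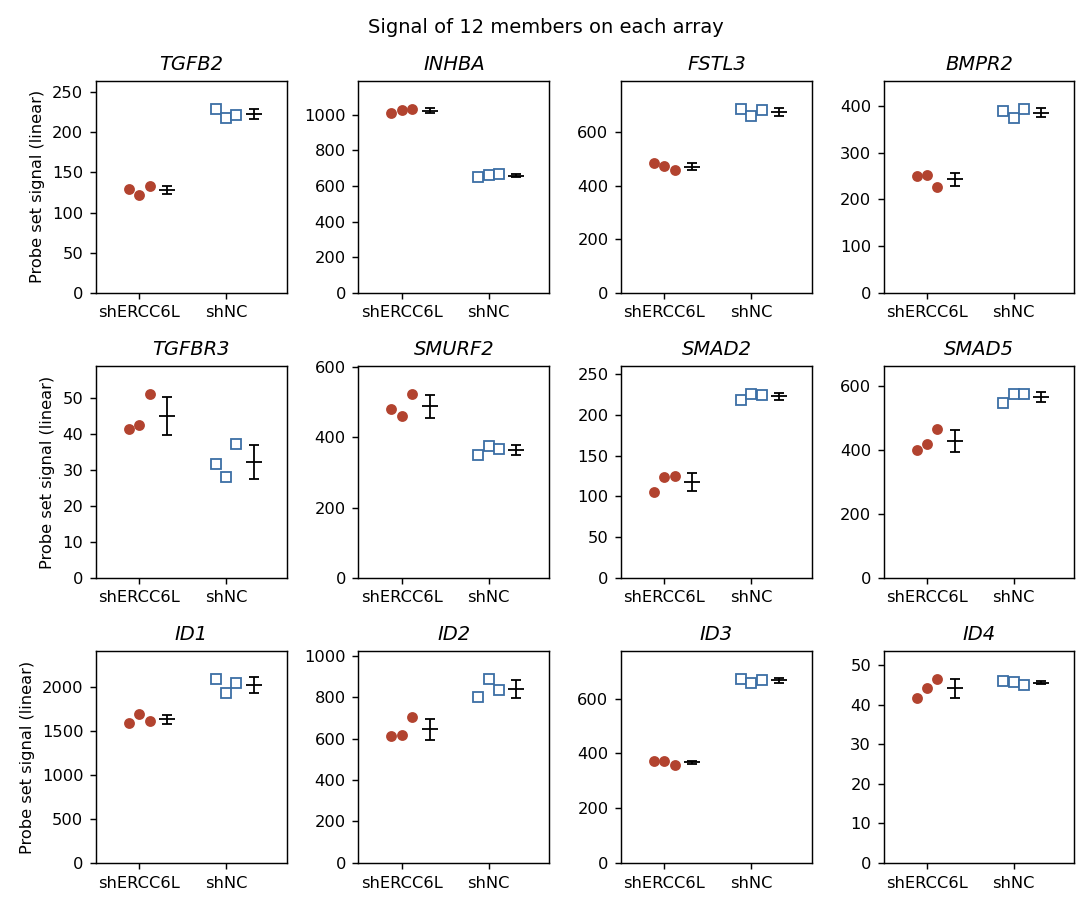
Linear probe set signal of 12 members, on axes that start at 0, for 3 shERCC6L arrays (filled circles, left) and 3 shNC arrays (open squares, right), with the mean and SD beside each group. The groups are apart for all but ID4, where they overlap, and INHBA, TGFBR3 and SMURF2 are the genes with the higher shERCC6L signal.

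SMAD2 had the largest fall of any member. SMAD2 carries the TGF-beta and activin signal to the nucleus. Its brightest probe set had a signal of 105, 124 and 125 on the shERCC6L arrays, against 218, 226 and 224 on the shNC arrays. All shERCC6L arrays lay far below the shNC arrays, with shERCC6L replicate 1 the lowest, and the means were 118 ± 11.2 in shERCC6L and 223 ± 4.19 in shNC cells (SD, n = 3 each). SMAD2 fell by 0.84 ± 0.06 on the log2 scale (SE; adjusted p = 9.1e-06), or 1.79-fold, and 100 of 18132 genes fell by more. Of its 7 probe sets 6 fell, but not by the same amount. Their changes were -0.92, -0.84, -0.59, -0.36, -0.34 and -0.34. The seventh probe set, with a signal of 69, 61.7 and 63.9 on the shERCC6L arrays, against 68.1, 65.9 and 62.2 on the shNC arrays, did not pass at -0.01 ± 0.05. With the 7 averaged, the change was -0.48.

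SMAD4, the partner shared by all SMAD complexes, was lower on most of its probe sets but not on the brightest. The brightest had a signal of 644, 606 and 568 on the shERCC6L arrays, against 694, 629 and 635 on the shNC arrays, groups that overlapped, and a change of -0.11 ± 0.05 that did not pass (adjusted p = 0.19). Of the other 6, 5 passed as lower in the fit over all probe sets, where 11.9% were lower. Their changes lay between -0.27 and -0.19. The second brightest had a signal of 304, 295 and 318 on the shERCC6L arrays, against 344, 364 and 368 on the shNC arrays, with no overlap, a fall of 0.22 ± 0.04 (adjusted p = 0.00394). The mean of the 7 probe sets changed by -0.20 (adjusted p = 2.9e-04).

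SMAD5, which carries BMP signals, fell by a similar amount on 4 of its 5 probe sets. The brightest had a signal of 398, 419.7 and 466 on the shERCC6L arrays, against 547, 574 and 575 on the shNC arrays. The groups did not overlap, and the change was -0.39 ± 0.05 (SE, n = 3 per group; adjusted p = 5.7e-04). The others were at -0.38, -0.35, -0.35 and -0.16, all past the threshold. SMAD1, the other BMP-activated SMAD among the members, had a signal of 213, 228 and 234 on the shERCC6L arrays, against 214, 198 and 197 on the shNC arrays. These groups overlapped, with the first shNC array above the first shERCC6L array, and the change of 0.14 ± 0.05 was just past the threshold (adjusted p = 0.0496). It passed under 7 of 15 alternatives. Leaving out shERCC6L replicate 2 or 3 or shNC replicate 2 or 3 ended the SMAD1 call (adjusted p = 0.139, 0.144, 0.135 and 0.150), as did the replicate block (0.0884), quantile normalization (0.0877) and pseudocounts of 1 and 64 (0.0816 and 0.0542), and neither of its probe sets passed in the fit over all probe sets (adjusted p = 0.0566 for the brightest).

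SMAD3, the second SMAD of the TGF-beta and activin branch, had probe sets past the threshold in opposite directions. The brightest had a signal of 1239.7, 1268 and 1222 on the shERCC6L arrays, against 1363, 1347 and 1376 on the shNC arrays, a fall of 0.13 ± 0.03 without overlap (adjusted p = 0.0146, and 0.0538 without shNC replicate 3). The next had a signal of 1023, 1036 and 1059 on the shERCC6L arrays, against 893, 874 and 938 on the shNC arrays. On that probe set every shERCC6L array was above every shNC array, at a change of 0.20 ± 0.04 (adjusted p = 0.00378). Another pair was likewise opposed, at -0.24 ± 0.04 and 0.16 ± 0.05, and the fifth, at 0.09, did not pass. Averaged, SMAD3 changed by 0.02 (adjusted p = 0.737), so these arrays give it no single direction. Which transcripts each probe set detects was not analysed here.

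The inhibitory SMADs, which are themselves induced by the pathway and block the receptors, were not called. SMAD7 had a signal of 278, 276 and 288 on the shERCC6L arrays, against 277, 278 and 279.7 on the shNC arrays, almost the same values in both groups, and the 95% interval of its change was -0.06 to 0.09. SMAD6 had a signal of 116, 123 and 141 on the shERCC6L arrays, against 126, 144 and 121 on the shNC arrays. Its groups overlapped, with an interval of -0.20 to 0.13, and no other probe set of either gene passed.

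**Figure D3:**
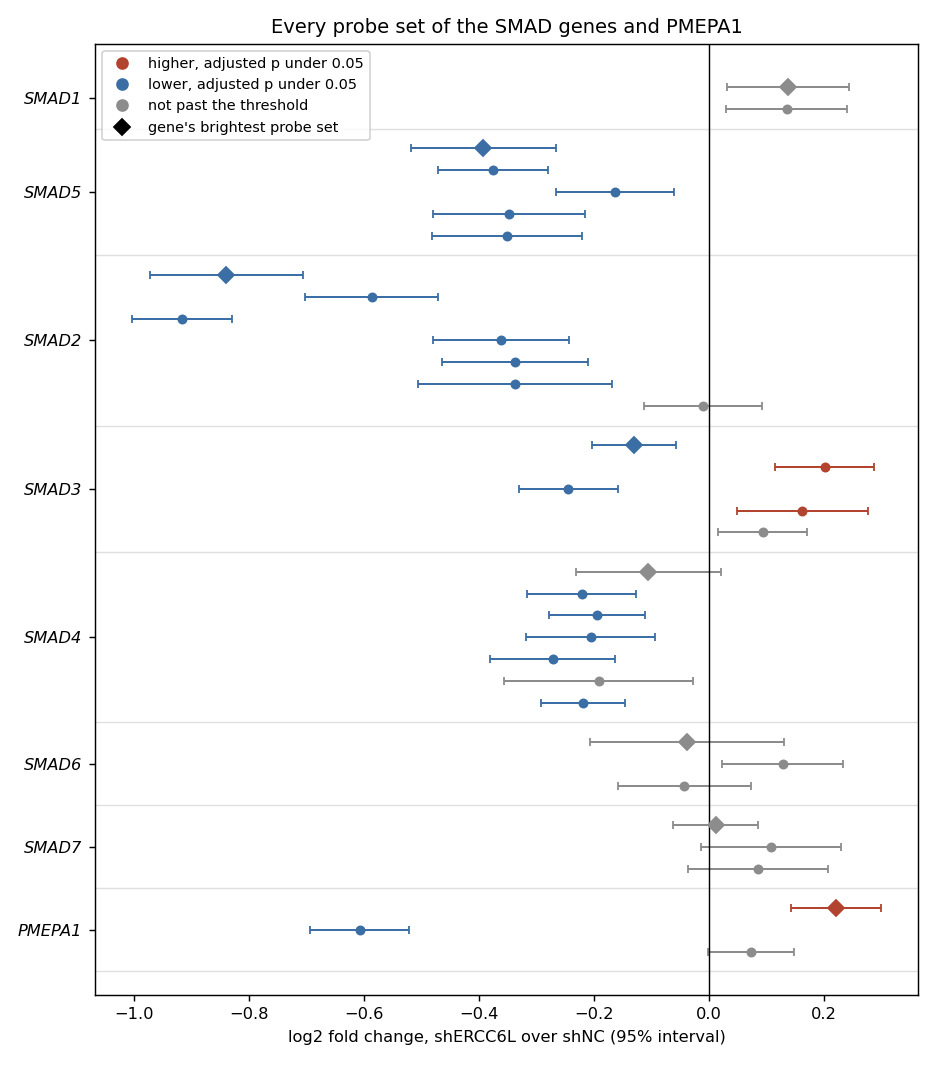
Log2 fold change of shERCC6L over shNC with its 95% interval for every probe set of the SMAD genes and PMEPA1, brightest first within a gene and marked by a diamond. Probe sets of SMAD5 and SMAD4 are all to the left of 0, those of SMAD2 run from -0.92 to -0.01, and those of SMAD3 and PMEPA1 lie on both sides.

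Of the 6 ubiquitin ligases and corepressors, 4 were higher (66.7%) and 0 lower. All 6 lay at or above the median level of all genes, where 32.8% of all genes were higher and 19.6% lower. SMURF2, a ubiquitin ligase that marks receptors and SMADs for degradation, had a signal of 481, 460.3 and 524 on the shERCC6L arrays, against 349, 376 and 367 on the shNC arrays. All shERCC6L arrays were above all shNC arrays, and SMURF2 rose by 0.41 ± 0.05 on the log2 scale (SE, n = 3 per group; adjusted p = 3.0e-04). A second probe set rose by 0.35 ± 0.09, and another, under 15 on every array, did not pass. SMURF1, its relative with a preference for BMP SMADs, had a signal of 161, 149.5 and 159 on the shERCC6L arrays, against 130.4, 127 and 134 on the shNC arrays. It rose by 0.24 ± 0.04 (adjusted p = 0.00149) with no overlap, but on 1 of its 2 probe sets, and by 0.11 with both averaged.

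Of the corepressors, SKI and TGIF1 rose. SKI, which binds SMAD complexes and recruits histone deacetylases, had a signal of 269.6, 258 and 259 on the shERCC6L arrays, against 216, 204 and 227 on the shNC arrays. There was no overlap, and SKI rose by 0.27 ± 0.04 (adjusted p = 0.00135), with 4 of its 5 probe sets past the threshold at 0.12 to 0.36. TGIF1, a homeodomain corepressor of SMAD2 and SMAD3, had a signal of 992, 992 and 961 on the shERCC6L arrays, against 852, 829.7 and 839.5 on the shNC arrays. It rose by 0.22 ± 0.03 (adjusted p = 8.9e-04), and by 0.23 ± 0.07 on its other probe set. SKIL, a relative of SKI that is induced by TGF-beta, had a signal of 96.9, 87.3 and 104 on the shERCC6L arrays, against 94.6, 101 and 93.3 on the shNC arrays. These overlapped, with a 95% interval of -0.13 to 0.12 for the change. TGIF2, a relative of TGIF1, had a signal of 126, 122 and 128 on the shERCC6L arrays, against 116, 118 and 118 on the shNC arrays. It did not pass, at 0.08 ± 0.03 (adjusted p = 0.0956), but its other probe set rose by 0.18 ± 0.05, and the mean of both by 0.13 (adjusted p = 0.0202).

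Among the ID genes, ID1, ID2 and ID3 fell and ID4 was not called. ID proteins bind basic helix-loop-helix factors and keep them off DNA, and their genes are direct targets of BMP-activated SMADs. ID3 had a signal of 371, 371 and 359 on the shERCC6L arrays, against 672, 657 and 669.6 on the shNC arrays. The arrays of each group lay close together and the groups far apart, at means of 367 ± 6.94 in shERCC6L and 666 ± 7.88 in shNC cells (SD, n = 3 each). ID3 fell by 0.83 ± 0.03 on the log2 scale (SE; adjusted p = 3.7e-07), or 1.78-fold, and 103 of 18132 genes fell by more. All 3 of its probe sets fell, the others by 0.84 ± 0.04 and 0.90 ± 0.06.

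ID2 had a signal of 611, 619 and 705 on the shERCC6L arrays, against 801, 888 and 835 on the shNC arrays. Here the groups did not overlap, although shERCC6L replicate 3 was closer to the shNC arrays than the other two. ID2 fell by 0.38 ± 0.06 (adjusted p = 0.00117) and by 0.29 ± 0.05 on its second probe set. ID1 had a signal of 1599, 1696 and 1619 on the shERCC6L arrays, against 2097, 1931 and 2053 on the shNC arrays. Again there was no overlap, and the falls on its 3 probe sets were 0.30 ± 0.04 (adjusted p = 5.6e-04), 0.33 ± 0.04 and 0.28 ± 0.03. ID4 was dim. Its brightest probe set had a signal of 41.6, 44.3 and 46.6 on the shERCC6L arrays, against 46, 45.7 and 45.1 on the shNC arrays, which overlapped (-0.04 ± 0.04), while a dimmer one had a signal of 16.9, 18.7 and 19.2 on the shERCC6L arrays, against 29.3, 27.8 and 29.1 on the shNC arrays and fell by 0.39 ± 0.04. The mean of its 4 probe sets fell by 0.14 (adjusted p = 0.0092).

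The promoter windows of the ID genes are shown because ID1, ID2 and ID3 moved together and ID4, on its brightest probe set, did not. They are the 250 bases before the RefSeq start sites (GRCh38.p14, 5′ to 3′), with the same motifs in capitals. They lie at chr20:31605039-31605288 on the plus strand for ID1, chr2:8681806-8682055 on the plus strand for ID2, chr1:23559502-23559751 on the minus strand for ID3 and chr6:19837120-19837369 on the plus strand for ID4.
ID1: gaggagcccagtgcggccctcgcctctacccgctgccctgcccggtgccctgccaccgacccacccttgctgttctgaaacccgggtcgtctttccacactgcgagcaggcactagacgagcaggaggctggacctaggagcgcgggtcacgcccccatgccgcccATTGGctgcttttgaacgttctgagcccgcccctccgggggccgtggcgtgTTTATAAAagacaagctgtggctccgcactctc
ID2: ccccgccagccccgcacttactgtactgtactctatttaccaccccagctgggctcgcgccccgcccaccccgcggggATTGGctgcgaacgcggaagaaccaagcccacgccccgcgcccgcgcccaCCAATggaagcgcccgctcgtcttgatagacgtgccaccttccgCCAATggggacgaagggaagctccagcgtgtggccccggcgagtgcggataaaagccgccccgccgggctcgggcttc
ID3: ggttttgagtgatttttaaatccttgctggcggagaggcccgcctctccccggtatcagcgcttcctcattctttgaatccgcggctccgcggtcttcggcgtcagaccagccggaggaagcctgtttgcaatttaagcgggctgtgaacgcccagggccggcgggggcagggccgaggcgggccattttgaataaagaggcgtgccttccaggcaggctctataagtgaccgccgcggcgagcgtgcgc
ID4: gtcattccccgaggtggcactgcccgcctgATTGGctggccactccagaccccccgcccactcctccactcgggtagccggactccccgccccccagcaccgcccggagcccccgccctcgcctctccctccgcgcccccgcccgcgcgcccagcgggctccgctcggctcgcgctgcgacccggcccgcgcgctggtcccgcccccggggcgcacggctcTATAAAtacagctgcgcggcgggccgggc
ID1 has a CCAAT box, read on the other strand as ATTGG, that starts 84 bases before the start site, and overlapping TATA boxes of either strand that start 33 and 31 bases before it. ID2 has CCAAT boxes 172, 122 and 78 bases before its start site, the first of them on the other strand. ID4 has a CCAAT box 220 bases and a TATA box 29 bases before its start site. The ID3 window, which belongs to the ID gene with the largest fall, holds none of the 7 motifs. The SMAD palindrome and the GC-rich SMAD element are in 0 of the 4 windows, which says only that these letters are not in the 250 bases searched. G and C made up 66% of the ID1, 69.2% of the ID2, 62% of the ID3 and 78.8% of the ID4 window.

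The other two target genes differed from each other. TGFBI, a secreted matrix protein named for its induction by TGF-beta, had a signal of 7223, 7382 and 7329.6 on the shERCC6L arrays, against 8337, 8016 and 8102 on the shNC arrays. It fell without overlap on all 4 of its probe sets, by 0.16 ± 0.03 on the brightest (adjusted p = 0.00615) and by up to 0.26 ± 0.04 on another. PMEPA1, a TGF-beta-induced membrane protein that holds SMAD2 and SMAD3 away from the receptor, had probe sets past the threshold in opposite directions. The brightest had a signal of 1605, 1639.8 and 1558 on the shERCC6L arrays, against 1377, 1387 and 1348 on the shNC arrays, a rise of 0.22 ± 0.03 (adjusted p = 0.00113). Another had a signal of 539, 569 and 565 on the shERCC6L arrays, against 834, 857 and 883 on the shNC arrays. Its groups were farther apart than those of the brightest and the other way round, a fall of 0.61 ± 0.04 (adjusted p = 9.5e-06). The last, at 0.07 ± 0.03, did not pass, and with all 3 averaged PMEPA1 was lower, at -0.10 (adjusted p = 0.0093).

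Several probe sets allowed a check of the call for 41 of the 45 members. The other 4, among them TGFB1, which was called lower, had 1 probe set each. In a fit over all 49293 probe sets, 70 of the 138 member probe sets were called (50.7%), against 28.7% of all probe sets. The shares in this paragraph were not matched for level. At or above the median level of all genes lay 81 of the 138 and 21119 of the 49293. Of the 138, 22 were higher (15.9%), against 16.8% of all, and 48 lower (34.8%), against 11.9% of all. Of the 41 members with several probe sets, all probe sets of 3 rose (INHBA, TGFBR2 and TGIF1) and all of 9 fell (TGFB2, LTBP2, FSTL3, BMPR2, SMAD5, ID1, ID2, ID3 and TGFBI). These 12 are 29.3% of the 41, against 13.5% of the 11734 genes with several probe sets. Opposite calls occurred in 2, SMAD3 and PMEPA1 (4.88%, against 1.33% of those genes). For 8 more members some probe sets rose and none fell, for 7 some fell and none rose, and for 12 none passed. Averaging moved the larger falls of SMAD2, TGFB2 and BMPR2 towards 0, to -0.48, -0.53 and -0.52, and left ID3 at -0.86, FSTL3 at -0.58 and INHBA at 0.69.

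**Figure D4:**
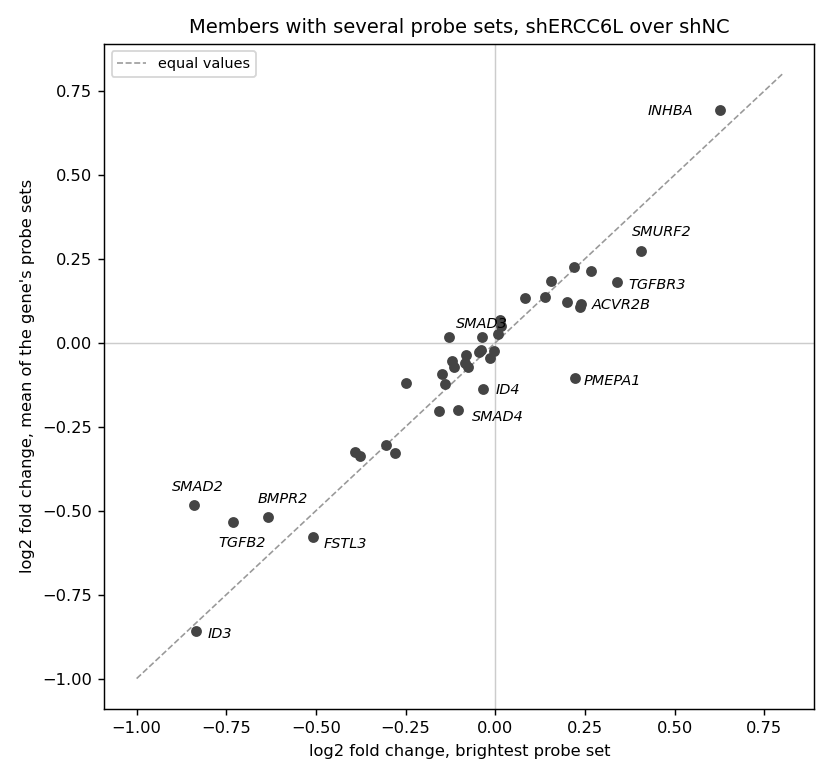
Log2 fold change of shERCC6L over shNC on the brightest probe set (horizontal) against that of the mean of all probe sets of the gene (vertical) for the 41 members with several probe sets, with a dashed line of equal values. SMAD3 and PMEPA1 lie on opposite sides of 0 on the horizontal and the vertical axis, at -0.13 and 0.02 and at 0.22 and -0.10.

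Outside the members, 6 lists held 124 further genes of the pathway, of which 116 were measured and 48 called (41.4%, against 31.6% of all genes), 17 higher (14.7%, against 18.2%) and 31 lower (26.7%, against 13.4%). Other ligands were mostly dim: of 23 measured, 0 were higher and 4 lower (17.4%, against 13.4% of all genes). GDF15, a distant family member that signals through another receptor, had a signal of 140.4, 153 and 143 on the shERCC6L arrays, against 221, 216 and 233 on the shNC arrays. It fell without overlap by 0.57 ± 0.04, and 3 of its 5 probe sets passed as lower. INHBE, an activin subunit gene, was dim, at 13.6, 15.7 and 16.8 on the shERCC6L arrays, against 26.9, 25 and 27.2 on the shNC arrays. It fell by 0.43 ± 0.05 on its only probe set. BMP8B, a BMP ligand gene, fell by 0.28 ± 0.07 (0.14 with its probe sets averaged).

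Of 9 other receptors and co-receptors, 1 was higher and 1 lower (11.1% each, against 18.2% and 13.4% of all genes). NEO1, neogenin, a receptor for the repulsive guidance molecules that act as BMP co-receptors, had a signal of 164, 175 and 165 on the shERCC6L arrays, against 241, 252 and 249 on the shNC arrays. The groups were apart, at a fall of 0.51 ± 0.04, but 1 of its 3 probe sets passed and their mean changed by -0.26. RGMB, such a guidance molecule, rose by 0.23 ± 0.05 on 1 of 2 probe sets. Among 18 other extracellular inhibitors and binding proteins, 1 was higher and 4 lower (5.56% and 22.2%, against 18.2% and 13.4% of all genes). CRIM1, a membrane protein that binds BMPs, had a signal of 321, 352 and 343 on the shERCC6L arrays, against 1072, 1128 and 1056 on the shNC arrays. That was the largest change of any gene on the 6 lists, a fall of 1.64 ± 0.04, on all 3 probe sets. FSTL1, a secreted follistatin-like protein, had a signal of 3382, 3455 and 3542 on the shERCC6L arrays, against 5204, 5255 and 5223 on the shNC arrays, a fall of 0.59 ± 0.03 on both of its probe sets. DAND5, an antagonist of the family, fell by 0.18 ± 0.06, a call that ended under 7 alternatives, among them those without shERCC6L replicate 2 or 3 or shNC replicate 1 or 2 (adjusted p = 0.0760, 0.110, 0.114 and 0.0510) and with probe sets averaged (-0.07). The BMP antagonist gene CHRDL1 rose by 0.16 ± 0.03, with 2 of its 3 probe sets past the threshold.

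Of 10 activators and processing enzymes of latent ligands, a list that also holds proprotein convertases and relatives of BMP1, 1 was higher and 4 lower. These are 10% and 40%, against 18.2% and 13.4% of all genes. On this list 7 genes lay at or above the median level, where 32.8% of all genes were higher and 19.6% lower. ITGAV, the integrin alpha V chain of receptors that pull latent TGF-beta open, had a signal of 1192, 1131 and 1257 on the shERCC6L arrays, against 1751, 1814 and 1729.6 on the shNC arrays. It fell without overlap by 0.56 ± 0.04, on all 5 of its probe sets. Thrombospondin 1, THBS1, which can activate latent TGF-beta, fell by 0.29 ± 0.07, and TLL2, a relative of BMP1, by 0.30 ± 0.06. With probe sets averaged the falls were 0.15 for THBS1 and 0.12 for TLL2. ITGB8, a beta chain that pairs with alpha V, had a signal of 748, 741 and 956 on the shERCC6L arrays, against 584, 736 and 626 on the shNC arrays. The spread within groups was wide, and the rise of 0.32 ± 0.11 (adjusted p = 0.0482) was 0.17 with probe sets averaged. The ITGB8 call ended without shERCC6L replicate 3 or shNC replicate 1 or 3 (adjusted p = 0.115, 0.155 and 0.128) and with pseudocounts of 1 and 64 (0.0731 and 0.0913). The integrin beta chain genes ITGB1 and ITGB5, also on the list, did not pass, at -0.04 ± 0.03 and -0.08 ± 0.04.

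Of 28 other SMADs, partners and modifiers, 7 were higher and 9 lower (25% and 32.1%, against 18.2% and 13.4% of all genes). The share of the 28 called was 57.1%, against 31.6% of all genes. On this list 24 genes lay at or above the median level. At that level 52.4% of all genes were called, 32.8% higher and 19.6% lower, and below it 10.9% were called. CTDSP2, a phosphatase that removes phosphates from the linker of SMADs, had a signal of 459.9, 451 and 479 on the shERCC6L arrays, against 891, 875 and 871 on the shNC arrays. All shERCC6L arrays were far below all shNC arrays, a fall of 0.90 ± 0.04 on the brightest of 6 probe sets that all fell, and of 0.53 with them averaged. DAB2, an endocytic adaptor that links TGF-beta receptors to SMADs, had a signal of 328, 327 and 325 on the shERCC6L arrays, against 620.5, 609 and 565 on the shNC arrays. It fell by 0.84 ± 0.04, on all 4 probe sets. TAB2, an adaptor of the TGF-beta-activated kinase TAK1, had a signal of 339, 337 and 344 on the shERCC6L arrays, against 587, 572 and 586 on the shNC arrays, a fall of 0.75 ± 0.03, again on all 4. The largest rises were those of STRAP, USP15 and TGFBRAP1. STRAP, a protein that binds TGF-beta receptors, rose by 0.33 ± 0.03, with 1 of its 2 probe sets past the threshold. The deubiquitinase gene USP15 rose by 0.28 ± 0.04, with 4 of its 7 past it. TGFBRAP1, a TGF-beta receptor-associated protein, rose by 0.27 ± 0.04 on its only probe set.

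Other known targets of TGF-beta or BMP did not move one way: of 28, 7 were higher and 9 lower. These are 25% and 32.1%, against 18.2% and 13.4% of all genes. The share of the 28 called was 57.1%, against 31.6% of all genes. On this list 19 genes lay at or above the median level. At that level 52.4% of all genes were called, 32.8% higher and 19.6% lower, and below it 10.9% were called. ANGPTL4, a secreted lipase inhibitor, had a signal of 183, 172 and 162 on the shERCC6L arrays, against 107, 102 and 90.5 on the shNC arrays, a rise of 0.70 ± 0.06 on its only probe set. SMTN, the smooth muscle protein smoothelin, rose on all 7 of its probe sets, by 0.54 ± 0.05 on the brightest, and TSC22D1, named for its induction by TGF-beta, rose by 0.29 ± 0.06 (0.18 with probe sets averaged). GADD45B, a stress-induced regulator of MAP kinase signalling, had a signal of 652, 632 and 638 on the shERCC6L arrays, against 1027, 1014 and 971 on the shNC arrays, a fall of 0.63 ± 0.04 (0.39 with probe sets averaged). MMP2, a gelatinase, had a signal of 528, 533 and 529 on the shERCC6L arrays, against 832, 797 and 853 on the shNC arrays and fell by 0.63 ± 0.04. ATOH8, a transcription factor gene induced by BMPs, fell by 0.45 ± 0.06 on both of its probe sets. Other BMP targets on the list, chosen after their values were seen, went the other way or did not pass. The homeobox gene MSX1 rose by 0.25 ± 0.06 and HEY1, a basic helix-loop-helix repressor gene, by 0.23 ± 0.04 on 1 of 2 probe sets (0.12 with both averaged), while the homeobox genes MSX2, at -0.07 ± 0.07, and DLX2, at 0.09 ± 0.05, did not pass.

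**Figure D5:**
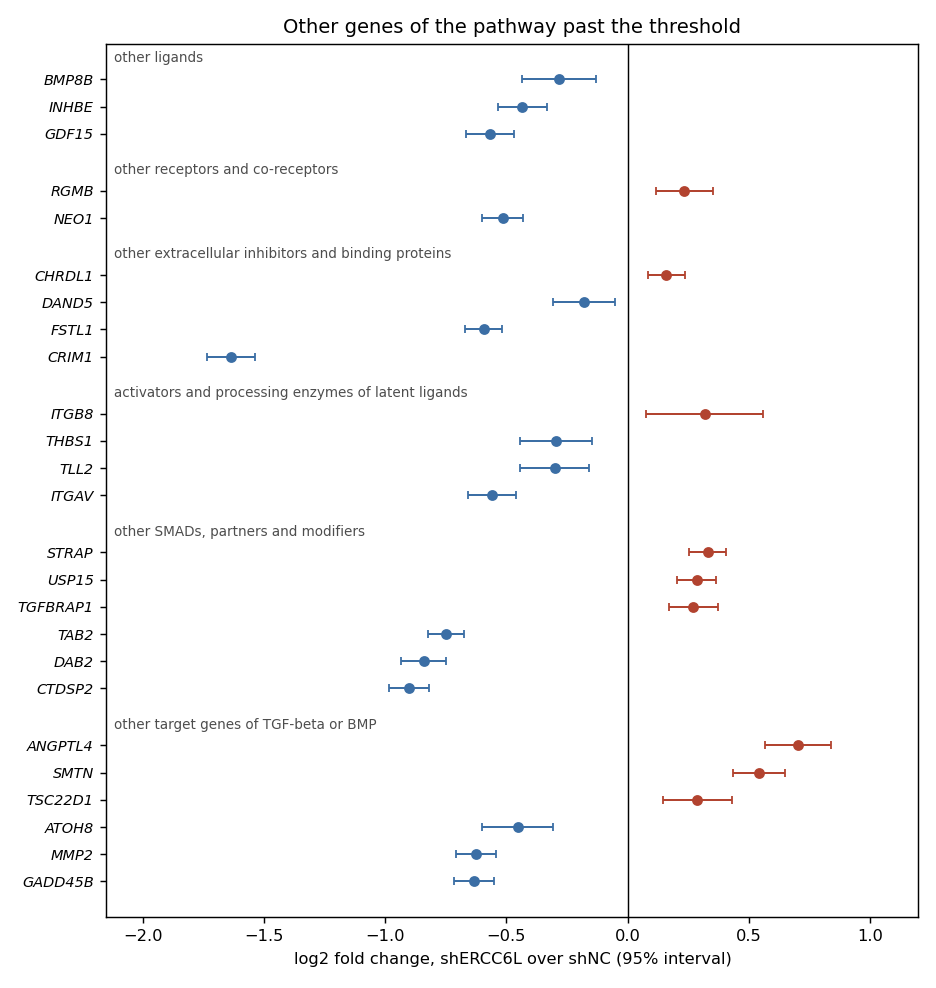
Log2 fold change of shERCC6L over shNC with its 95% interval for up to 3 rises and 3 falls from each of the 6 lists of other pathway genes, on the brightest probe set. CRIM1 lies farthest to the left at -1.64 and ANGPTL4 farthest to the right at 0.70.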

How the data were processed

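Single-channel Affymetrix arrays were run on 3 shERCC6L and 3 shNC samples. Per the labels' protocols, biotinylated cRNA was made from 6 ug of total RNA. The deposited values are linear intensity values, 1 per probe set and array, from Affymetrix Expression Console per the submitters' processing notes. Its version, background correction and normalization were not stated in any source at hand, and without detection calls it is not known which dim signals lie above background. The number of arrays limits the precision.

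Gene symbols came from GEO's platform annotation. Intensities were turned into log2(signal + 16). A gene is represented by its probe set of highest mean on the 6 arrays, and single probe sets come from a fit over all 49293 that are not controls. Both fits used limma 3.58.1 (R 4.3.3; lmFit and eBayes, 2-sided, with neither a block nor a filter) and Benjamini-Hochberg adjustment over all features at 0.05, and were tested on simulated data. Groups follow the sample labels.

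Members and lists were chosen with earlier results of these data known. The rule for named members was a call, a change of at least 0.3 and no overlap, or probe sets past the threshold in opposite directions. The other members were described after their values were seen. Up to 3 rises and 3 falls were named from each list of other pathway genes. Alternatives were median centring, quantile normalization, dropping dim genes, pseudocounts of 1 and 64, array weights, robust estimation with an intensity trend, a replicate block, averaged probe sets and leaving out each array.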

Additional observations from a re-analysis of the deposited data

How the results depend on the processing

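Of the 27 members called, 18 stayed past the threshold in the same direction under all 15 alternatives, and of the 18 not called, 12 passed under none. The calls that did not hold throughout were those of TGFB3, LTBP1, LTBP3, TGFBR1, TGFBR2, ACVR2B, SMAD1, SMAD3 and PMEPA1. With probe sets averaged per gene, SMAD3 changed sign to 0.017 (adjusted p = 0.737) and PMEPA1 to -0.10 (adjusted p = 0.0093), because their probe sets disagree, while SMAD4, ID4 and TGIF2 passed. The counts of members called ran from 20 without shNC replicate 3 to 28 with array weights or a pseudocount of 64, and none moved by over 1.5 times. Same-numbered arrays did not all deviate together, with correlations of their deviations of 0.24 for number 1, -0.14 for number 2 and -0.01 for number 3, and 2 of 6 arrays correlated best with their own number. With a replicate block 26 members were called, 10 higher and 16 lower. Dim members such as GREM1, BMP6, BMP7 and BMPR1B have low signals, where the added 16 damps any change.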
